A study of Mus musculus with 4 samples.

Results

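The Hox genes of the mouse lie in 4 clusters, a to d, and 38 of them were measured here. Every gene probe whose name on the array was Hox, a cluster letter and a paralog number was taken, which gave 50 of the 41174 gene probes. No probe was named Hoxc11. The values are log2 ratios of red over green on 4 two-colour Agilent arrays. Red held RNA of mouse embryonic fibroblasts (MEFs, harvested after several passages) on 2 arrays and RNA of induced pluripotent stem (iPS) cells on the other 2. Green held RNA of CGR8.8, a line of embryonic stem (ES) cells, on all 4. The iPS cells were 1 clone, harvested 30 days after transduction, and ES and iPS cells had both been kept in leukemia inhibitory factor at 1000 IU/ml. The labels call the 2 arrays of a group biological replicates without saying how the cultures were separated, so errors and p-values measure only the spread between these arrays. The dyes were not swapped and all arrays lay on 1 slide, so a dye effect particular to a probe remains in every ratio over ES cells, and slide position and group cannot be told apart. The iPS results describe 1 clone against 1 ES line.

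Hox genes encode homeodomain transcription factors that give cells of the embryo their position along the head-to-tail axis and, for the higher paralog numbers, along the limbs and in the urogenital tract. Genes of 1 cluster are arranged in the order in which they are used, from the low paralog numbers (hindbrain and neck) to the high ones (lumbar region, tail and limb ends). In ES cells most of these genes are held silent by Polycomb proteins, and retinoic acid, Cdx factors and the exit from pluripotency open them, the low numbers first. Fibroblasts keep a Hox pattern that reflects the part of the body they came from.

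The probes covered 103 kb of chromosome 6 (cluster a, 14 probes of 11 genes), 171 kb of chromosome 11 (cluster b, 15 of 10), 108 kb of chromosome 15 (cluster c, 9 of 8) and 95.1 kb of chromosome 2 (cluster d, 12 of 9) on the genome build mm8. Of the 50 probes 49 lay on the strand of their cluster, and 1 of the 2 probes named Hoxb2 lay on the opposite strand. Because Hox genes share the homeobox, the DNA that encodes the homeodomain, a probe inside it can resemble other members. A reading frame with conserved homeodomain residues was found in 11 probes, each of a different gene. The longest run of bases that any of these 11 shared with a probe of another Hox gene was 22, and among the other 39 probes it was 11. The sequences shown are homeobox probes of 4 genes, 1 with a shared run of 14 bases and 3 whose gene also had a probe elsewhere. Capitals mark the longest run shared with a probe of another Hox gene.
Hoxd10, chr2:74495062-74495121 (+): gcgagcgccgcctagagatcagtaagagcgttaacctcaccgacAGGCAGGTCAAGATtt
Hoxa4, chr6:52120179-52120238 (-): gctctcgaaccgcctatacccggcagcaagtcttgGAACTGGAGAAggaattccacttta
Hoxd13, chr2:74470787-74470846 (+): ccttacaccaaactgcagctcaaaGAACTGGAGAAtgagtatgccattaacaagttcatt
Hoxd9, chr2:74500115-74500174 (+): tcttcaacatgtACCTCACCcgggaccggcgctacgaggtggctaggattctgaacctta
The Hoxd10 run is shared with the Hoxa9 probe. The Hoxa4 and Hoxd13 runs are shared with each other in the part that encodes the first helix. The Hoxd9 run of 8 bases, shared with the Hoxd10 probe, was no longer than the runs found outside the homeobox. The array annotation also lists the transcript of Hoxd3 for the Hoxb3 probe, so that probe's signal may not belong to Hoxb3 alone.

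The cell labels were checked against marker genes on the same arrays. In MEFs 8 of 8 tested fibroblast genes were higher than in ES cells and 10 of 10 pluripotency genes were lower. In iPS cells 7 of 10 pluripotency genes were higher than in ES cells, 2 were lower (Pou5f1 and Lin28a), and 6 of 8 fibroblast genes were lower. Among markers of other cells that a MEF culture can hold, 2 of 6 macrophage genes were higher and 1 lower, and 1 of 4 endothelial genes was higher and 1 lower. Lyz2 (4.88, its other probe 0.63), Adgre1 (at least 2.43-fold) and Emcn (5.07) were higher. Cd68 (-1.69) and Kdr (-1.54) were lower, and the rest were not called. The shares of all tested probes were 12.8% higher and 12.4% lower in MEFs, and 8.0% and 10.7% in iPS cells. Between 61.05% and 63.4% of all gene probes were well above background in a channel. The log2 ratios of the 2 MEF arrays correlated at 0.989 and those of the 2 iPS arrays at 0.992 across probes, which are not independent.

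Hox RNA was widespread in MEFs and scarcer in both pluripotent lines. Of the 50 probes 40 were well above background on both MEF arrays, 21 on both iPS arrays and 27 in the green channel of all 4 arrays, the ES cells. The ES count thus asks for 4 arrays rather than 2. On some arrays only, the counts were 3 in MEFs, 6 in iPS cells and 7 in ES cells. On no array they were 7, 23 and 16. The filter on dim probes left out 7 probes, which were not tested, although 1 probe of Hoxb8 and 1 of Hoxd3 were above background on 1 MEF array. These were both probes of Hoxa13, Hoxb8 and Hoxd3 and the probe of Hoxd12, and their log2 ratios on single arrays lay within 0.34 of 0. A further 5 probes had a spot marked as an outlier on 1 array. This left 38 probes of 33 genes that were tested with limma among 24874 probes and called where the change reached 2-fold and the adjusted p (Benjamini-Hochberg) was under 0.05. The filter on dim probes accepts signal well above background in 1 group alone. Probes that passed only through MEF signal could hardly be called lower in MEFs over ES cells or higher in iPS cells over MEFs.

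In MEFs over ES cells 18 of the 38 probes were called higher and 3 lower, where 12.8% of all tested probes were called higher and 12.4% lower. The median log2 ratio of the 38 was 0.95, against -0.01 over all tested probes. In iPS cells over ES cells none was called higher and 6 were called lower, where the shares of all tested probes were 8.0% and 10.7%, and the median was -0.25 against -0.01. At a limma adjusted p under 0.05 without the 2-fold limit, 5 of the 38 were higher and 23 lower in iPS cells. Of all 24874 tested probes 9466 were higher and 9958 lower at that limit. At an unadjusted limma p under 0.05 the Hox counts were 6 and 23, and 19749 of all tested probes passed. In iPS cells over MEFs none was called higher and 23 were called lower, where the shares were 15.4% and 17.7%, and the median was -1.46 against 0.01. At an unadjusted limma p under 0.05, 4 were higher and 30 lower, and 20139 of all tested probes passed. In MEFs over ES cells 20748 of the 24874 tested probes had an unadjusted p under 0.05. The last comparison shares its arrays with the other ones. Replicate arrays differed by a median of 0.10 (MEF) and 0.13 (iPS) on the log2 scale over the 38 probes, and by at most 0.99 and 0.33, both for the same probe of Hoxb9. The MEF calls rest on how background was corrected: with the normexp correction fitted over all spots, including the marked ones, no probe of the whole series was called by limma in MEFs over ES cells, and none of the 38 Hox probes had an unadjusted p under 0.05. The order used here was chosen with results of both orders known. In the other order 14 marked spots with a local background over 500 on the array of MEF replicate 1 entered the correction, and the median of the 38 Hox probes was 0.45.

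**Figure D1:**
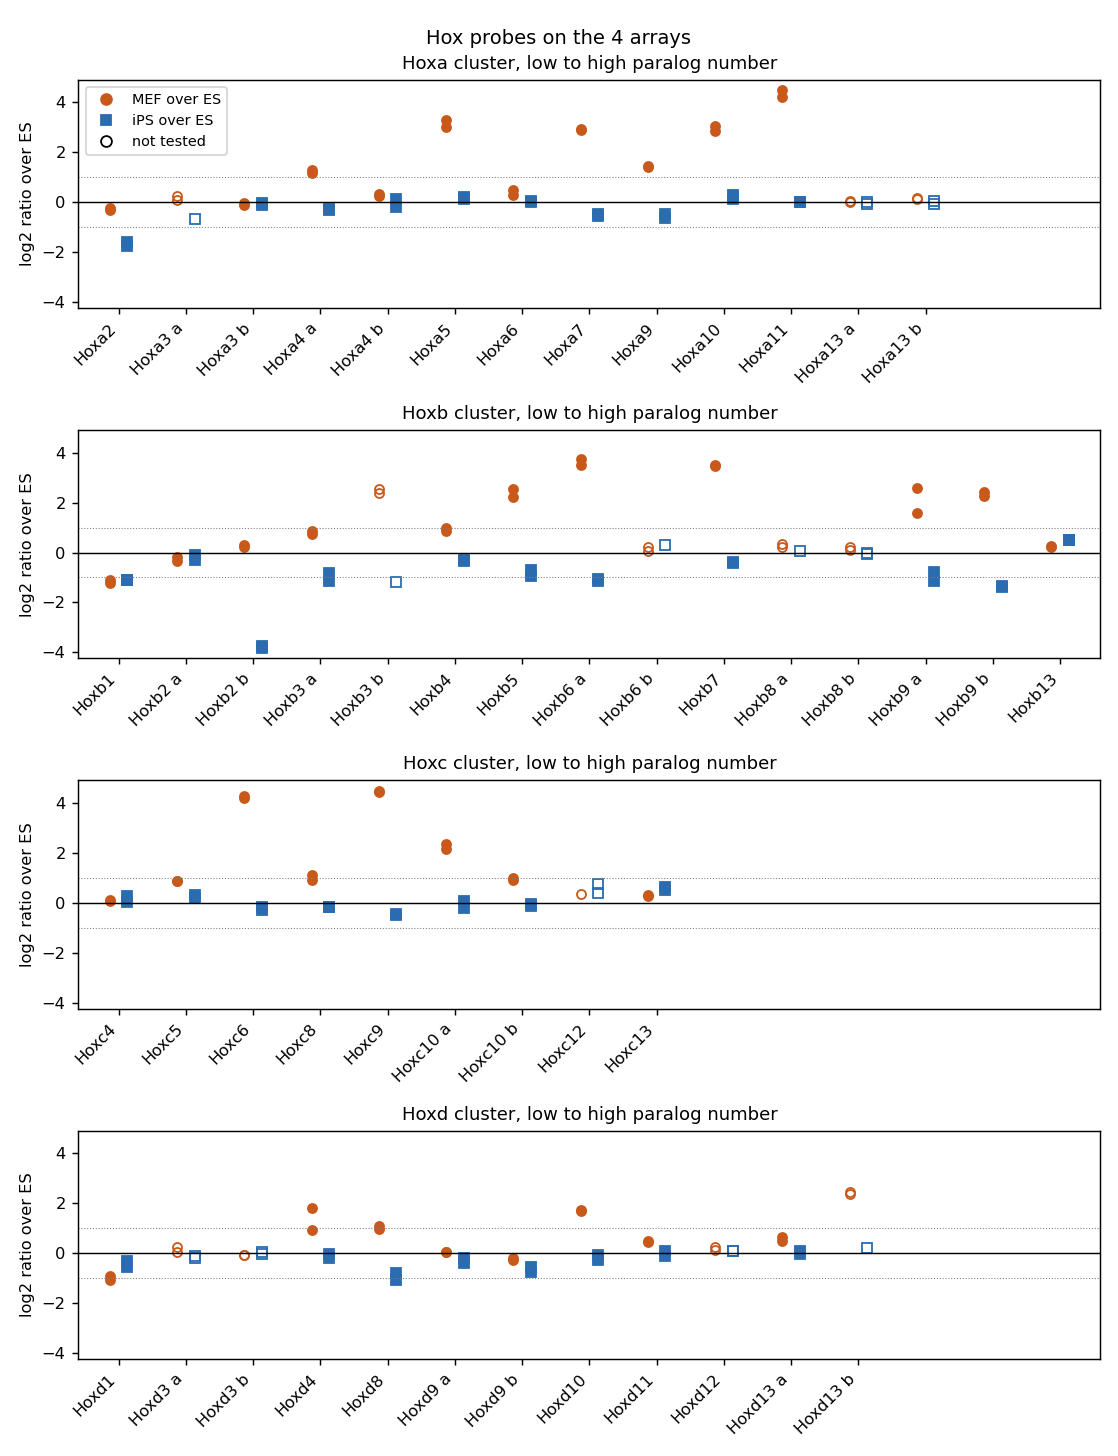
Log2 ratio over ES cells (vertical axis) of the Hox probes reported here on each array, by cluster and ordered by paralog number; circles are the 2 MEF arrays, squares the 2 iPS arrays, open symbols probes that were not tested, and the letters a and b tell the probes of 1 gene apart. Dotted lines mark a 2-fold change. Filled MEF circles lie above the upper line at paralog 4 or later in each cluster, while Hoxa2 and 1 probe of Hoxb2 have iPS squares well below the lower line.

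The genes at the low end of the clusters, which act in the hindbrain and the branchial arches, held the probes that were lower in MEFs. Of the 8 tested probes of paralogs 1 to 3, none was called higher and 3 were called lower, among them those of Hoxb1 and Hoxd1. The shares of all tested probes were 12.8% higher and 12.4% lower. Over all 38 tested Hox probes these 3 were the only ones called lower.

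Hoxb1, which specifies the fourth segment of the hindbrain and was printed in 10 spots, showed -1.23 and -1.09 on the MEF arrays and -1.08 and -1.11 on the iPS arrays. It was well above background in ES cells on all 4 arrays, on neither MEF array and on 1 iPS array. It was therefore at least 2.23-fold lower in MEFs than in ES cells (adjusted p = 6.65e-07) and, as fitted, 2.14-fold lower in iPS cells (adjusted p = 1.21e-06). Bounds of this kind set the brighter group, on each array, against the dim probe's own signal or the lowest signal of any probe well above background, whichever is higher. A bound therefore equals the fitted fold where the dim probe's own signal is the higher, as it is here, and bounds are open to dye bias. Hoxd1, the cluster d member of this paralog group, had -1.07 and -0.94 on the MEF arrays and -0.55 and -0.33 on the iPS arrays. It was not well above background on either MEF array, which gives a bound of at least 1.85-fold lower (adjusted p = 5.22e-06), and it was not called in iPS cells. Its fitted log2 ratio of -1.0 lay at the limit and lost its call without MEF replicate 1 (-0.94) and when arrays were centred on their median (-0.96).

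The paralog 2 genes separated the 2 pluripotent lines. Hoxb2, needed in the hindbrain and for facial nerve development, had log2 ratios of 0.29 and 0.21 on the MEF arrays and -3.76 and -3.82 on the iPS arrays with the probe on its own strand. In normalized log2 signal this was 10.85 and 10.75 in MEFs and 6.80 and 6.66 in iPS cells, against 10.56, 10.54, 10.57 and 10.48 in ES cells. MEFs and ES cells therefore carried similar signal, and the iPS clone alone was low. The iPS over ES ratio of -3.79 ± 0.05 (SE, limma adjusted p = 5.67e-09) was the largest fitted change of any Hox probe in that comparison, and the iPS over MEF ratio was -4.04 ± 0.07 (adjusted p = 9.97e-09). The probe named Hoxb2 on the opposite strand read -0.16 and -0.34 in MEFs and -0.30 and -0.11 in iPS cells and was not called.

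Hoxa2, which gives the second branchial arch its identity, showed -0.29 and -0.23 on the MEF arrays and -1.59 and -1.75 on the iPS arrays. It was well above background in MEFs and ES cells and on neither iPS array. It was at least 3.19-fold lower in iPS cells than in ES cells (adjusted p = 1.95e-07) and at least 2.6-fold lower than in MEFs (adjusted p = 2.38e-06). The paralog 3 genes changed less clearly. Hoxa3 was not called with its tested probe (-0.13 and -0.03 in MEFs, -0.13 and -0.05 in iPS cells). Its other probe had a marked spot on 1 iPS array and read 0.08 and 0.25 in MEFs and -0.66 on the remaining iPS array. Hoxb3 is described with the probe comparisons, and Hoxd3 was not well above background in ES or iPS cells.

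Promoters from RefSeq (GRCm38.p6) were held for 22 of the 38 genes, 24 promoters in all, and 250 bases before the start of transcription were read. The following are those of Hoxa5, high in MEFs, of Hoxa2, low in the iPS clone, and of Hoxb1, low in both. Capitals mark CpG dinucleotides, the sites of DNA methylation.
Hoxa5, chr6:52204588-52204837 (-): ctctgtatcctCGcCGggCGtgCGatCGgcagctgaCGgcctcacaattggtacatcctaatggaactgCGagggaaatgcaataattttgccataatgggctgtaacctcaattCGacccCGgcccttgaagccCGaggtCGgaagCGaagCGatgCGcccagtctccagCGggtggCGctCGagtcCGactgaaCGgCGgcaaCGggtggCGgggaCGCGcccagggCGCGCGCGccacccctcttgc
Hoxa2, chr6:52164832-52165081 (-): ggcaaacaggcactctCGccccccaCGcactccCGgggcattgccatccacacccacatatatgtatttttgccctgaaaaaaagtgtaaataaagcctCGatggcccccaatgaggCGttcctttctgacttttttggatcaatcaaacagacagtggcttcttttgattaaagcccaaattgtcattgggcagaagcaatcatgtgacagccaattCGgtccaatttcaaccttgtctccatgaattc
Hoxb1, chr11:96365508-96365757 (+): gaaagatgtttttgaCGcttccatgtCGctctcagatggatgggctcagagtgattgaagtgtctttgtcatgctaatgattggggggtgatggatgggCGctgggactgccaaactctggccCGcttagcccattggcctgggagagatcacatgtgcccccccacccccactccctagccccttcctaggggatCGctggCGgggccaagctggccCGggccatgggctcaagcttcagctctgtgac
The Hoxa5 promoter held 28 CpGs, Hoxa2 held 6 and Hoxb1 held 7, where the median was 12.5 over the 24 Hox promoters and 6 over all 32851 promoters of the table. The 9 promoters of genes higher in MEFs held 3 to 28 CpGs and those of the 9 whose genes were not called held 2 to 31, so these ranges overlapped. Their medians were 7 and 14, and the median of the 2 promoters of genes lower in MEFs was 15.5. Hoxa5 thus held the most CpGs of the promoters of genes higher in MEFs and is not typical of them. The element ATCAATCA, at which Hox proteins bind together with cofactors, was searched on both strands. It was found in 2 of the 24 Hox promoters, 111 bases before the start of Hoxa2 and 73 before 1 of the 2 starts of Hoxd11, and in 0.67% of all promoters. A match of letters does not show that a factor binds there.

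Paralogs 4 to 8, which act in the neck and thorax, had 10 of 15 tested probes called higher in MEFs and none lower, where 12.8% and 12.4% of all tested probes were. The probes of Hoxa6, Hoxb4, Hoxc6 and Hoxc8 and 1 probe of Hoxa4 passed the dim filter only through MEF signal. A lower call was hardly possible for them. Hoxc6, a thoracic gene also used in mammary and limb development, was among the higher ones. It had 4.21 and 4.28 on the MEF arrays and -0.28 and -0.15 on the iPS arrays. Its log2 signal was 10.89 and 10.76 in MEFs and 5.98 and 5.84 in iPS cells, against 6.68, 6.49, 6.26 and 5.99 in ES cells. MEFs stood clear of both pluripotent lines; the signal was above background on 2 of the 4 arrays in ES cells and on neither in iPS cells. The fitted MEF over ES ratio was 4.24 ± 0.05 (adjusted p = 3.82e-09).

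Neighbouring genes of cluster b rose together. Hoxb5, active in the neck, lung and gut wall, had 2.24 and 2.54 on the MEF arrays and -0.93 and -0.68 on the iPS arrays. Hoxb6, a thoracic and forelimb gene, had 3.49 and 3.77 on the MEF arrays and -1.15 and -1.05 on the iPS arrays. Hoxb7, its thoracic neighbour, had 3.45 and 3.51 on the MEF arrays and -0.40 and -0.39 on the iPS arrays. In each case both MEF arrays lay above and both iPS arrays below 0. The MEF over ES ratios were 2.39 ± 0.09, 3.63 ± 0.07 and 3.48 ± 0.05 for Hoxb5, Hoxb6 and Hoxb7, with adjusted p of 2.03e-07, 1.31e-08 and 4.34e-09. Only Hoxb6 among them was called lower in iPS cells over ES cells (-1.10 ± 0.07, adjusted p = 5.54e-06), with signal well above background on only 1 iPS array. Hoxb5 reached -0.80 and was not well above background on either iPS array.

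In cluster a the same stretch was led by Hoxa5, needed for the lung and the neck skeleton, and by Hoxa7 of the thorax. Hoxa5 had 3.0 and 3.29 on the MEF arrays and 0.14 and 0.22 on the iPS arrays, and Hoxa7 had 2.90 and 2.94 on the MEF arrays and -0.55 and -0.48 on the iPS arrays. The MEF over ES ratios were 3.15 ± 0.07 (adjusted p = 2.4e-08) and 2.92 ± 0.05 (adjusted p = 7.04e-09). Hoxa6, which lies between them, was not called with a probe that covers the motif before the homeodomain (0.48 and 0.28 in MEFs, -0.0048 and 0.05 in iPS cells). Hoxb4, a regulator of blood stem cells, read 1.00 and 0.88 in MEFs and stayed under the limit at 0.94.

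Other calls in this stretch rested on modest values. Hoxd4 had 0.94 and 1.82 on the MEF arrays, Hoxd8 1.09 and 0.98, and Hoxc8, a gene of the lower thorax, 0.93 and 1.13. Without MEF replicate 2, Hoxd4 (0.94) and Hoxc8 (0.93) were no longer called, and without MEF replicate 1 Hoxd8 (0.98) was not. At the low end of cluster c, Hoxc4 (0.13 and 0.09 on the MEF arrays) and Hoxc5 (0.88 and 0.89) were not called.

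Among paralogs 9 to 13, used in the lower trunk, limbs and urogenital tract, 8 of 15 tested probes were higher in MEFs and none was lower. Of all tested probes 12.8% were higher and 12.4% lower. The probes of Hoxa11 and Hoxd11, both of Hoxc10 and the tested probe of Hoxd13 passed the dim filter only through MEF signal. A lower call was hardly possible for them. Hoxc9, active in the lower thorax, had log2 ratios of 4.43 and 4.48 on the MEF arrays, with -0.45 and -0.48 on the iPS arrays. Its log2 signal was 11.93 on both MEF arrays and 7.08 and 7.13 in iPS cells, against 7.5, 7.45, 7.52 and 7.61 in ES cells. All 3 RNAs were above background here, so the fold is measured on both sides. It was 21.9-fold higher in MEFs than in ES cells (4.45 ± 0.05, adjusted p = 3.74e-09).

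Hoxa11, which shapes the forearm and shank and the uterus, had 4.49 and 4.21 on the MEF arrays and 0.03 and -0.0022 on the iPS arrays. It was not well above background in ES cells or in iPS cells on any array, so it was at least 20.4-fold higher in MEFs than in ES cells (adjusted p = 6.65e-09). Its log2 ratio was 5.48 with an offset of 10 and 7.39 with the deposited log ratio. Hoxa10, of the lumbar region, femur and uterus, had 2.84 and 3.04 on the MEF arrays and 0.11 and 0.28 on the iPS arrays. Hoxa9, of the lower thorax and the blood lineage, had 1.42 and 1.45 on the MEF arrays and -0.47 and -0.63 on the iPS arrays. The 3 were called in MEFs and none was called in iPS cells over ES cells.

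In cluster d Hoxd10, a lumbar and hindlimb gene, was higher at 1.68 and 1.75 on the MEF arrays, with -0.06 and -0.28 on the iPS arrays (MEF over ES 1.72 ± 0.06, adjusted p = 2.11e-07). Hoxd9 was not called with either probe (0.06 and 0.05, and -0.28 and -0.18, on the MEF arrays). Hoxd11 had 0.45 and 0.49 and was not called. At the far ends of the clusters, which act in the tail, hands and feet and the prostate, the tested probes were not called in MEFs or iPS cells over ES cells, and Hoxd13 is described with the probe comparisons. Hoxb13 read 0.24 and 0.24 in MEFs and 0.51 and 0.51 in iPS cells, and Hoxc13 read 0.28 and 0.32 in MEFs and 0.50 and 0.63 in iPS cells. Those were the highest iPS values of their clusters among the tested probes and lay under the 2-fold limit. Hoxc12 had a marked spot on MEF replicate 2 and read 0.37 on the other MEF array and 0.38 and 0.76 on the iPS arrays.

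By cluster, the probes called higher in MEFs numbered 6 of 11 tested in cluster a, 5 of 11 in cluster b, 4 of 8 in cluster c and 3 of 8 in cluster d. Of all tested probes 12.8% were called higher. No probe of cluster c was called lower, and that cluster has no paralog below 4. Over all probes of a cluster, tested or not, the median log2 ratio in MEFs was 0.33 in a, 0.82 in b, 0.96 in c and 0.32 in d, and over the tested probes alone it was 1.22, 0.94, 0.996 and 0.52, so the order of the clusters depends on which probes are counted. In iPS cells over ES cells 2 of 11 probes were lower in cluster a, 4 of 11 in cluster b, and none of 8 in cluster c or of 8 in cluster d. Of all tested probes 10.7% were lower in that comparison. The cluster medians in iPS cells were -0.06, -0.80, -0.08 and -0.14 for a, b, c and d, and over tested probes -0.09, -0.96, -0.08 and -0.23. Whether the clusters differ was not tested. Across the 50 probes the log2 ratio had a Spearman rho with paralog number of 0.33 in MEFs and 0.50 in iPS cells, as a description across probes of the same arrays. By cluster a, b, c and d it was 0.50, 0.26, -0.05 and 0.56 in MEFs, and 0.64, 0.39, 0.34 and 0.50 in iPS cells. For iPS cells over MEFs it was -0.06 across the 50 probes.

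**Figure D2:**
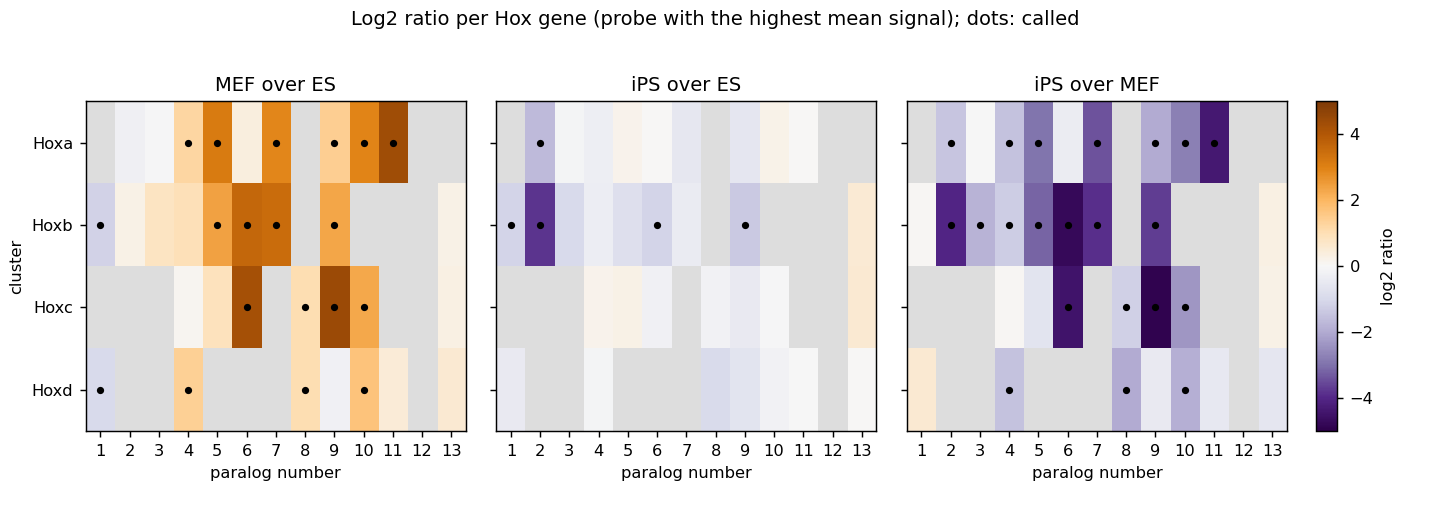
Log2 ratio of the tested Hox genes reported here (the probe with the highest mean signal) in a grid of cluster (rows) and paralog number (columns), for MEF over ES, iPS over ES and iPS over MEF; orange is higher, purple lower, grey not tested, not shown or no gene, and dots mark called genes. In MEFs the called orange cells run from paralog 4 to 11 and Hoxb1 and Hoxd1 are purple and called; in iPS cells the called cells shown are Hoxa2, Hoxb1, Hoxb2, Hoxb6 and Hoxb9.

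In the iPS clone the 6 probes lower than in ES cells included those of Hoxa2, Hoxb1, Hoxb2, Hoxb6 and Hoxb9, and 4 of the 6 were in cluster b. Hoxb9, of the thorax, had -1.36 and -1.35 on the iPS arrays with 1 probe (-1.36 ± 0.06, adjusted p = 4.88e-07) and -0.79 and -1.13 with the other, which was not called. Under the scanner software's own log ratio, which adds no offset to dim signals, 17 probes were lower and 4 higher in iPS cells. With an offset of 10 in place of 50 the counts were 11 and 1. Of all 24874 tested probes, 4332 were lower and 4073 higher under the former, and 3544 and 2645 under the latter. The 4 that were higher under the deposited ratio were Hoxa10 (1.24), Hoxb13 (1.93), Hoxc5 (1.57) and Hoxc13 (2.69). With normexp over all spots or with marked spots kept, 2 of the 6 were called, Hoxa2 and Hoxb2. In RNA of a whole culture, fewer cells with a transcript and less of it per cell cannot be told apart.

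Of 8 tested genes of the primitive streak and early lineages, 4 were lower in iPS cells than in ES cells, where 10.7% of all tested probes were. They were T (Brachyury, the mesoderm factor) at -4.27, Foxa2 (endoderm and notochord) at -2.33, Pax6 (neural) at -1.57 and Mixl1 (mesendoderm), which was not well above background in iPS cells, at least 2.07-fold. The other 4 were not called, with Sox17 at 0.58, Gata6 at 0.57, Eomes at 0.14 and Sox1 at -0.08. Their part in the Hox result was not tested.

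Against MEFs the iPS clone was lower for all 18 probes called higher in MEFs over ES cells, 2 comparisons that share the MEF arrays. Probes of Hoxa2, Hoxb2, Hoxb3, Hoxb4 and Hoxc10 that were not called in MEFs over ES cells were lower as well. The 23 probes lower in iPS cells belonged to 21 genes, 7 probes in cluster a, 8 in cluster b, 5 in cluster c and 3 in cluster d. The dye cancels in this contrast. Hoxc9 was at -4.92 ± 0.07 (adjusted p = 5.28e-09), a 30.2-fold lower level. Hoxb6 was at -4.73 ± 0.10 (adjusted p = 2.14e-08), Hoxc6 at -4.46 ± 0.08 (adjusted p = 9.56e-09) and Hoxa11 at -4.34 ± 0.10 (adjusted p = 2.83e-08). Hoxc6 and Hoxa11 were not well above background in iPS cells, so their levels there are only bounds and have no rank beside the others. Hoxb6 was well above background on only 1 iPS array. Hoxb7 lay at -3.88, the 2 Hoxb9 probes at -3.68 and -3.04, Hoxa7 at -3.43 and Hoxb5 at -3.19, the last at least 9.02-fold. Hoxb1 at 0.06 and Hoxd1 at 0.56 were not called. With normexp over all spots 2 of the 23 were called, Hoxa2 and Hoxb2.

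Both probes were tested for 5 of the 12 genes that had 2, and their calls differed for 4 of the 5 in at least 1 comparison. For Hoxa4 the homeobox probe printed above read 0.24 and 0.33 on the MEF arrays and was not well above background in ES cells. Its partner, 799 bases away, read 1.28 and 1.17 and was called higher in MEFs (1.22 ± 0.05, adjusted p = 4.3e-07). The mean over the 2 probes, 0.76, was not called. For Hoxc10, of the lumbar region and hindlimb, the probe whose ends lie 3249 bases apart on the genome read 1.01 and 0.91 in MEFs. Its partner within 1 exon read 2.16 and 2.37 and was at least 4.81-fold higher in MEFs than in ES cells (adjusted p = 1.83e-07). For Hoxb9 both probes were higher in MEFs, at 2.41 and 2.25 with 1 and at 1.59 and 2.58 with the other, whose replicates differed most of all tested Hox probes in both groups. For Hoxd9 neither probe was called in any comparison.

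For Hoxb3, Hoxb6 and Hoxd13 the second probe had a marked spot on 1 iPS array and was fitted on the other 3 arrays. Hoxb3, a neck and hindbrain gene, read 0.76 and 0.87 on the MEF arrays with the homeobox probe and was not called over ES cells. Its other probe, 1888 bases away, read 2.54 and 2.38 and would be called higher in MEFs (2.46 ± 0.06, adjusted p = 1.62e-07). It read -1.18 on the 1 iPS array with a value, where it was not well above background, at least 2.12-fold lower than in ES cells; 1 array gives no spread of its own. Hoxd13, which shapes the digits, read 0.48 and 0.66 in MEFs with the homeobox probe and 2.45 and 2.35 with the other (2.40 ± 0.05, adjusted p = 1.22e-07). Hoxb6 went the other way. Its probe in the coding transcript rose as described, while the probe assigned to another transcript 2282 bases away read 0.22 and 0.05 in MEFs and 0.29 on 1 iPS array. Counting such probes on 3 arrays, an alternative added after the data were seen, gave 20 Hox probes higher and 3 lower in MEFs, and 7 lower in iPS cells, the seventh being that Hoxb3 probe.

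Of the 9 tested homeobox probes, 2 were called higher in MEFs over ES cells (Hoxa9 and Hoxd10) with a median of 0.57, against 16 of 29 other probes with a median of 1.04. In iPS cells over ES cells none of the 9 and 6 of the 29 were called lower, with medians of -0.17 and -0.29. In iPS cells over MEFs 4 of the 9 and 19 of the 29 were called lower, with medians of -0.56 and -1.51. Of all tested probes 12.8% were higher in MEFs over ES cells, 10.7% lower in iPS cells over ES cells and 17.7% lower in iPS cells over MEFs. The classes hold different genes, the split was made after the values were seen and the difference was not tested.

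**Figure D3:**
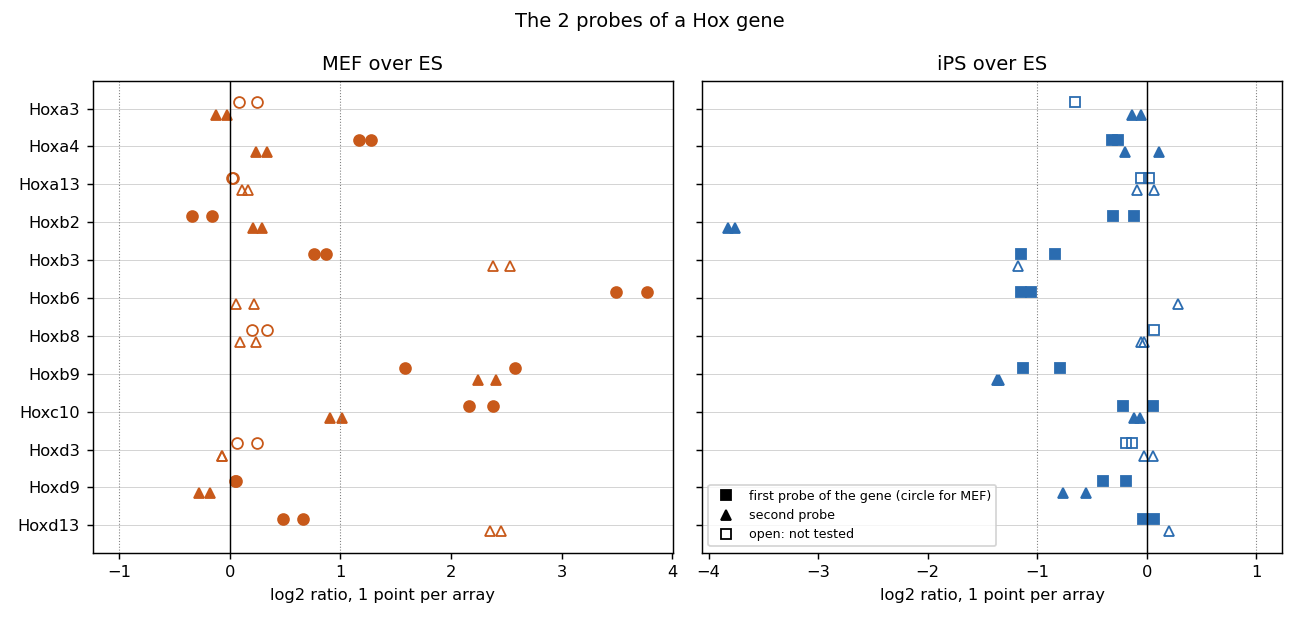
Log2 ratio over ES cells (horizontal axis, 1 point per array) of both probes of the 12 Hox genes that had 2, in MEFs (left, circles and triangles) and iPS cells (right, squares and triangles); open symbols were not tested and dotted lines mark a 2-fold change. The probes of Hoxa4, Hoxb3, Hoxb6, Hoxc10 and Hoxd13 lie apart in MEFs, and those of Hoxb2 lie apart in iPS cells.

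Hox proteins bind DNA with homeodomain cofactors of the TALE class. The counts of this and the next lists stand beside shares of all tested probes of 12.8% higher and 12.4% lower in MEFs, and 8.0% and 10.7% in iPS cells. Of 8 tested, 2 were higher in MEFs than in ES cells, among them Meis1 (1.16 ± 0.05, its other probe 0.59), and none was lower. In iPS cells 2 of 8 were lower than in ES cells, among them Pknox2 (-1.01 ± 0.05, adjusted p = 1.91e-06, its other probe 0.09).

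The Cdx factors activate trunk Hox genes in the embryo. Of the 3, Cdx2 was lower than in ES cells in MEFs (at least 11.5-fold, adjusted p = 1.6e-08) and in iPS cells (-3.32 ± 0.07, adjusted p = 2.92e-08), while Cdx1 and Cdx4 were not called. Cdx4 lay just short of the 2-fold limit, at -0.999 in MEFs and -0.994 in iPS cells. It was not well above background in either, which gives a bound of at least 1.83-fold lower in each. Cdx1 read -0.55 in MEFs and -0.27 in iPS cells. Retinoic acid is the main signal that opens the low paralog numbers. Of 8 tested genes of its axis 5 were higher and 1 lower in MEFs. The carrier Crabp1 was at 3.69 ± 0.05, the degrading enzyme Cyp26b1 at 3.72 ± 0.06, the synthesizing enzyme Aldh1a2 at 1.52 ± 0.05 and the receptors Rarb and Rxra at 1.29 ± 0.05 and 1.36 ± 0.05. The other Rxra probe read 0.10 in MEFs and 1.51 in iPS cells, where the first read -0.20. Cyp26a1, a degrading enzyme that retinoic acid itself induces, was lower in MEFs (-4.30 ± 0.05) and in iPS cells (-3.21 ± 0.05). Aldh1a2 was lower in iPS cells (-1.07 ± 0.05, adjusted p = 7.22e-07).

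Polycomb proteins keep Hox genes silent. In MEFs 7 of 14 tested Polycomb genes were lower than in ES cells and 2 higher. Those lower included the methyltransferase Ezh2 (-1.85 ± 0.05), its partners Suz12 (-1.18 ± 0.05) and Jarid2 (-2.29 ± 0.06), the subunits Cbx7 (-3.97 ± 0.09) and Phc1 (-2.39 ± 0.05), and those higher included Bmi1 (2.30 ± 0.05, its other probe 0.98). In iPS cells Jarid2 (2.02 ± 0.06) and Suz12 (1.08 ± 0.05) were higher than in ES cells and Phc2 (-1.63 ± 0.05) was lower. Of 8 tested genes of the Trithorax group and the demethylases that oppose Polycomb, 4 were lower in MEFs (Wdr5, Ash2l, Rbbp5 and Kdm6a) and 1 was lower in iPS cells, the demethylase Kdm6b (-1.18 ± 0.05, adjusted p = 5.56e-07). These lists were chosen with results of these arrays known, and what the genes do to Hox RNA here was not tested.

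**Figure D4:**
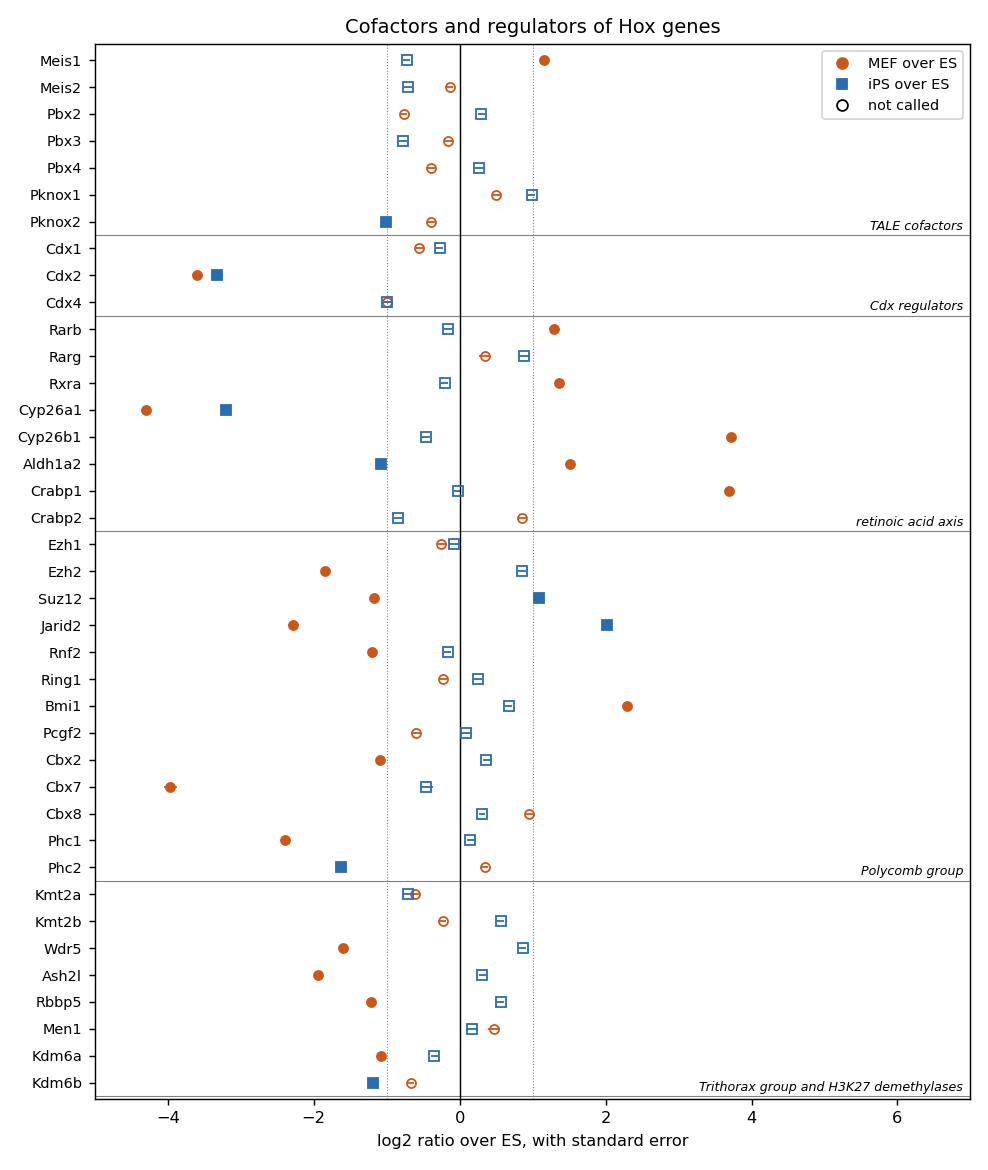
Log2 ratio over ES cells with its standard error (horizontal axis) of the tested cofactors and regulators reported here of Hox genes, in MEFs (circles) and iPS cells (squares); filled symbols were called. Cdx2 lies below -3 in both, and Ezh2, Suz12 and Jarid2 lie below 0 in MEFs and above 0 in iPS cells.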

How the data were processed

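The data are 4 two-colour Agilent arrays. Per the file headers, the authors read the spots with Agilent Feature Extraction 10.5.1.1. The deposited files hold mean and local-background intensity of each spot, and processed intensity that the scanner software had background-subtracted and dye-normalized. They also hold a log10 ratio of red over green that the authors' software made from the processed signals, and the series' value table is identical to it (largest difference 0). Labelling used an Agilent kit and 1 µg of RNA, per the labels' protocols.

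Mean intensities were corrected with normexp (offset 50) over spots without an outlier mark in limma 3.58.1 (R 4.3.3) and each array was then normalized by loess with a span of 0.3 in which controls had weight 0. Fitting normexp over unmarked spots rather than all spots decides the MEF calls and was chosen with results of both known. Marked spots were removed and repeated spots averaged. The dim filter asked for signal well above background in red on both arrays of a group or in green on all 4. It passed 27725 of 41174 gene probes, of which 24874 had no array missing. The log2 ratios, computed here from the deposited intensities, were fitted with lmFit and eBayes (1 coefficient per group, 2 residual and 4.91 prior degrees of freedom) and adjusted over all 24874 probes. The number of arrays limits the precision. The offset pulls ratios of dim probes towards 0. Probe sequences and mm8 positions are those of the array files; the split into homeobox and other probes was made after the values were seen.

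Hox probes are given by value or in counts; some items counted are not reported here by name or sequence. Values on each array are given for called probes among the 10 largest changes of a comparison, for both ends of a cluster's range and for probes of a gene that differ in call. Other genes come from lists of cofactors, Cdx factors, the retinoic acid axis, Polycomb, Trithorax, cluster neighbours, ParaHox genes and cell type markers. The members and lists were chosen with earlier results of these data known. A gene of a list stands for its probe with the highest mean signal. Same-numbered arrays of the 2 groups deviated with a correlation of -0.11, so the numbers do not pair them. Alternatives covered background correction, normalization, filters, probes per gene, each array left out and a replicate block.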

Additional observations from a re-analysis of the deposited data

Results flagged for a closer look

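Of 38 tested probes, 2 were called in opposite directions over ES cells in the 2 groups. The contrast of iPS cells over MEFs is the difference of the 2 ratios, so its value follows from them and adds no support. Hoxb6 was at 3.63 in MEFs and -1.10 in iPS cells, and the contrast was -4.73. Its signal was well above background on only 1 iPS array. Hoxb9 was at 2.33 in MEFs and -1.36 in iPS cells with the probe that was called in both, and the contrast was -3.68. Its other probe was at 2.08 and -0.96. Each value lay on the same side of 0 on both arrays of its group. Among 23 probes well above background in ES cells on all 4 arrays, none had 1 ES signal far from the other 3, where chance gives about 5% of such groups.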

How the results depend on the processing

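The counts of Hox probes called were 18 higher and 3 lower for MEFs over ES cells, 0 and 6 for iPS over ES cells, and 0 and 23 for iPS cells over MEFs. With normexp over all spots they became 0 and 0, 0 and 2, and 0 and 2, and with marked spots kept the same; 46 of 50 called results lost their call in each and 4 kept it, and no Hox probe had an unadjusted p under 0.05 in limma for MEFs over ES cells in either. With the stricter filter, which tests fewer probes, they were 7 and 1, 0 and 3, and 0 and 9. At any fold they were 29 and 6, 5 and 23, and 4 and 30. With an offset of 10 they were 22 and 3, 1 and 11, and 1 and 25, and with the deposited log ratio 27 and 3, 4 and 17, and 1 and 30. Over all 24874 tested probes the counts at any fold were 10042 and 10482, 9466 and 9958, and 9987 and 9866. With an offset of 10 those counts were 4053 and 3991, 2645 and 3544, and 4853 and 5515. With the deposited log ratio those counts were 4884 and 5470, 4073 and 4332, and 6627 and 5859. With median centring the Hox counts were 21 and 2, 0 and 6, and 0 and 23. There the median of all probes lay at 0.16 in MEFs and 0.14 in iPS cells. Of all calls over ES cells 70% and 61.5% were higher there, against 50.6% and 42.8%. Leaving out 1 array gave 17 to 18 and 2 to 3, 0 and 6 to 8, and 0 and 22 to 23. The replicate block left the counts at 18 and 3, 0 and 6, and 0 and 23, and so did the crossed pairing, which was added after the data were seen because same-numbered arrays deviated with a correlation of -0.11. No filter also left them unchanged, and so did quantile normalization of mean signals, which leaves ratios as they are. Over probes past the dim filter alone, the medians were 0.94, -0.21 and -1.41 over all clusters, against 0.52, -0.16 and -0.93 over all 50 probes; they were 0.80 and -0.19 for cluster a and 0.94 and -0.96 for cluster b (MEFs first, then iPS cells), and 0.57 for cluster d in MEFs. Taking 1 probe per gene gave 17 and 3, 0 and 6, and 0 and 21, and the mean over a gene's probes gave 16 and 3, 0 and 6, and 0 and 20. Single calls lost beside those in the report were Hoxa4 in iPS cells over MEFs with the mean over probes (-0.92) and 1 probe of Hoxc10 in that contrast without MEF replicate 1 (-0.997). No called Hox probe changed sign in any of these settings. Why the counts moved with background correction and offset was not tested. Signal over background limits the rest: 23 of 50 probes were not above background on any iPS array.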

Other observations

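Of 10 tested genes beside or inside the clusters, none was higher and 1 lower in MEFs over ES cells, where 12.8% and 12.4% of all tested probes were. In iPS cells over ES cells 1 was higher and 1 lower, where the shares were 8.0% and 10.7%. Evx1, a homeobox gene next to Hoxa13 that is active in the primitive streak, was lower in MEFs (-1.29 ± 0.06, limma adjusted p = 5.09e-07) and in iPS cells (-1.09 ± 0.06, adjusted p = 1.65e-06), while Evx2 beside Hoxd13 was at 0.22 in MEFs and 0.05 in iPS cells. Ttll6, a tubulin-modifying enzyme gene beyond Hoxb13, was higher in iPS cells (2.57 ± 0.06, adjusted p = 3.55e-08) and at -0.74 in MEFs. Skap2 and Hibadh beside cluster a, Smug1 and Calcoco1 beside cluster c, and Mtx2 and Lnpk beside cluster d lay between -0.20 and 0.51 in MEFs and between -0.69 and 0.68 in iPS cells. The other Skap2 probe read -0.05 in MEFs and 0.87 in iPS cells. Skap1 beside cluster b was at 0.72 in MEFs and -0.30 in iPS cells, neither called. In iPS cells over MEFs Skap1 was lower (-1.01) and Ttll6 higher (3.30), where 17.7% and 15.4% of all tested probes were.

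The ParaHox genes, the sister cluster of the Hox genes, were represented by Gsx1, a forebrain gene, at 0.06 in MEFs and 0.87 in iPS cells, neither called, and by Cdx2. Gsx2 and Pdx1 were not tested.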
